A study of Mus musculus with 4 samples.

Results

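The report covers 10 genes that move calcium into, out of and around the sarcoplasmic reticulum, the calcium store of heart muscle. They were chosen by name and are *Ryr2*, *Trdn*, *Casq2*, *Jph2*, *Hrc*, *Atp2a2*, *Pln*, *Sln*, *Slc8a1* and *Camk2d*, 10 of the 21755 protein-coding genes in the annotation used. All 10 were found, and 9 of them held at least 1 peak of open chromatin in the gene body. The measurement is ATAC-Seq, in which the Tn5 transposase inserts sequencing adapters into accessible DNA, so that reads pile up into peaks where chromatin is open. Nuclei came from hearts of Cdh5-Cre/NuTRAP mice, 8 to 12 weeks of age, with a background given as C57BL/6. Strain names in the paper mark both mouse lines as mixed stocks of C57BL/6 and another strain. Both populations carry the NuTRAP reporter and the Cre transgene, which is driven by the promoter of the endothelial cadherin gene *Cdh5*, and they were separated by flow sorting into GFP+ (endothelial) and GFP- (non-endothelial) nuclei. The GFP- population is therefore a mixture of every heart cell type in which Cre was not active. There were 2 libraries per population, and 1 peak list per population called from both libraries together, so no difference between the lists can be set against a replicate spread and no p-value is given.

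In a heart muscle cell, calcium entering through L-type channels opens the ryanodine receptor RYR2 in the store membrane, and the calcium released starts contraction. Relaxation follows when the SERCA2 pump, encoded by *Atp2a2*, returns calcium to the store and the sodium-calcium exchanger, encoded by *Slc8a1*, carries it out of the cell. Phospholamban (*Pln*) and sarcolipin (*Sln*) are small membrane proteins that hold the pump back, and the kinase CaMKII delta (*Camk2d*) phosphorylates several of these proteins. The comparison asks how far the chromatin of these genes is open in endothelial nuclei and in the other nuclei of the same hearts. Whether each of the genes is particular to heart muscle was not tested.

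Some of the regions described below are shown first. They are given as 200-base windows centred on the peak summit or as the 250 bases before a gene start. All are on the strand of the gene in build mm10 (GRCm38). Capitals mark the letters of a searched motif word on either strand. The words were the MEF2 and SRF consensus sequences, GATAAG for GATA factors, TNAAGTG for NKX2-5, CATTCC for TEAD, CAGGAAGT for ETS, TGANTCA for AP-1, CAGCTG for an E-box and CCATTGT for SOX. A match is a description of the letters and not evidence that a factor binds there. The windows were chosen among the largest peak near a gene, the largest peak found in a single list, and a gene start with a MEF2 match.
Atp2a2 upstream, summit of both lists, chr5:122527002-122527201, minus strand: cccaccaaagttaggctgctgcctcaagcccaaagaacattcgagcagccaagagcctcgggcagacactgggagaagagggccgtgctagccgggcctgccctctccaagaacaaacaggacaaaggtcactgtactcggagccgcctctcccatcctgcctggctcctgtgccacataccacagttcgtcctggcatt
Pln gene end, GFP- summit, chr10:53346225-53346424, plus strand: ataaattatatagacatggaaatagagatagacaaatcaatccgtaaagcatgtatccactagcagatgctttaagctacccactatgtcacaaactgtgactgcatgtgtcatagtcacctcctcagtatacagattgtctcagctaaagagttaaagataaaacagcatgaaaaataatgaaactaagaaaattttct
Slc8a1 intron, GFP- list only, chr17:81580100-81580299, minus strand: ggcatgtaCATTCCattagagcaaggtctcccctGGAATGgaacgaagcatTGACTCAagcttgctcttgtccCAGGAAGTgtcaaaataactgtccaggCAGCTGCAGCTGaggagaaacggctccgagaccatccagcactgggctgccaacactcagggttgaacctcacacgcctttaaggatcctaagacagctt
Slc8a1 intron, GFP+ summit of a shared peak, chr17:81481884-81482083, minus strand: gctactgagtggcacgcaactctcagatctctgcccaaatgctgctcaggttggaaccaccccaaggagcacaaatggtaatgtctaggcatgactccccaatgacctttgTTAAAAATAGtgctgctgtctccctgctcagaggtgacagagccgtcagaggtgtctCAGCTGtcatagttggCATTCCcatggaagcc
Casq2 before the start, chr3:102086165-102086414, plus strand, from RefSeq: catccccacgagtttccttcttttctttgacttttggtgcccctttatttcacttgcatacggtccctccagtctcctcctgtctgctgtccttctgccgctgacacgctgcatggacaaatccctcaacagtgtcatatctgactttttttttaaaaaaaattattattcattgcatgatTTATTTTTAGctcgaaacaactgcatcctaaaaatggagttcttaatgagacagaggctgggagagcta

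The chromatin of these genes was open in both lists, and it was more widely covered in the GFP- list. Within the gene bodies and the 50 kb upstream of them, 172 of the 78912 GFP- peaks and 136 of the 65008 GFP+ peaks were found. Of these, 136 GFP- and 96 GFP+ peaks lay in a gene body. The summed bodies were covered by peaks over 6.12% of their length in the GFP- list and over 3.70% in the GFP+ list, beside 3.21% and 2.65% for all protein-coding genes. For the 9 genes with a body peak the share was higher in the GFP- list, although the GFP- over GFP+ ratio of *Hrc*, 1.40, was 0.771 with peaks of rank 50 up alone and that of *Pln*, 1.04, was 0.967 without the first 1000 bp. Of all 15315 protein-coding genes with a body peak, 10156 were more covered in GFP- and 4966 in GFP+. In 4 of the 9 genes (*Atp2a2*, *Jph2*, *Slc8a1* and *Casq2*) the share was at least 1.5 times higher in the GFP- list. Towards GFP+, 0 of 9 passed that limit. Among all 15315 protein-coding genes with a body peak, 22.8% passed the same limit towards GFP- and 6.63% towards GFP+. With the GFP- list shortened to the size of the GFP+ list by dropping its smallest peaks, 3 of the 9 genes passed the limit towards GFP-, beside 17.8% of all genes.

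**Figure D1:**
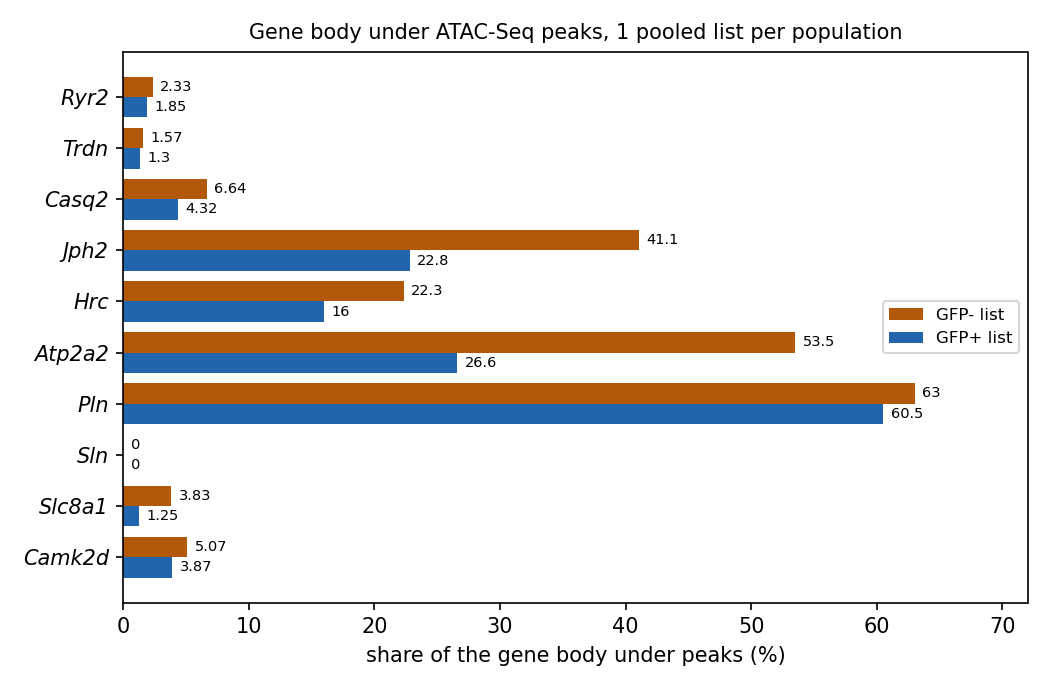
Share of each gene body under peaks (percent, horizontal axis) for the 10 genes, grouped from calcium release to uptake, exchange and kinase, with 1 bar for each pooled list and no error bar since there is 1 list per population. *Pln* was covered over 63.0% and 60.5%, *Atp2a2* over 53.5% and 26.6%, and *Sln* was not covered in either list.

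Most of the endothelial peaks at these genes were also found in the GFP- list. Of the 136 GFP+ peaks, 128 met a GFP- peak over 1 bp or more, a share of 94.1% (Wilson 95% interval 88.8 to 97.0%), and of the 172 GFP- peaks, 117 overlapped a GFP+ peak, a share of 68.0% (60.7 to 74.5%). Over whole lists the shares were 86.6% of GFP+ peaks and 69.7% of GFP- peaks. For peaks in the body and 50 kb upstream of any protein-coding gene they were 87.4% and 72.3%. The GFP- share at these genes was thus close to that of its list, while the GFP+ share lay above that of its list by more than the counting interval. When an overlap of 50% of both peaks was required, the GFP+ share was 69.1% beside 73.7% for its list, so the order turned. These intervals cover counting error only and treat the peaks of a gene as independent. The 8 GFP+ peaks without a GFP- partner were small. Each peak was ranked by its area within its own list, from 0 for the smallest to 100 for the largest, and the highest of the 8 had a rank of 24.7.

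The 55 GFP- peaks without a GFP+ partner were mostly small as well, with a median rank of 20.1, and 6 of them had ranks from 50 up. Of the 55, 5 ranked from 50 to 75 and 1 from 75 to 100. Of the 23923 such peaks of the whole list, 4287 and 1066 did. The largest of the 55 was the *Slc8a1* intron peak whose window is printed above, at a rank of 77.3. At ranks from 75 to 100 of the GFP- list 50 of 51 peaks at these genes were shared, or 98.0%, beside 94.6% of all peaks of those ranks. At ranks from 0 to 25, 10 of 43 were shared, or 23.3% (13.2 to 37.7%), beside 40.3% of all peaks.

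**Figure D2:**
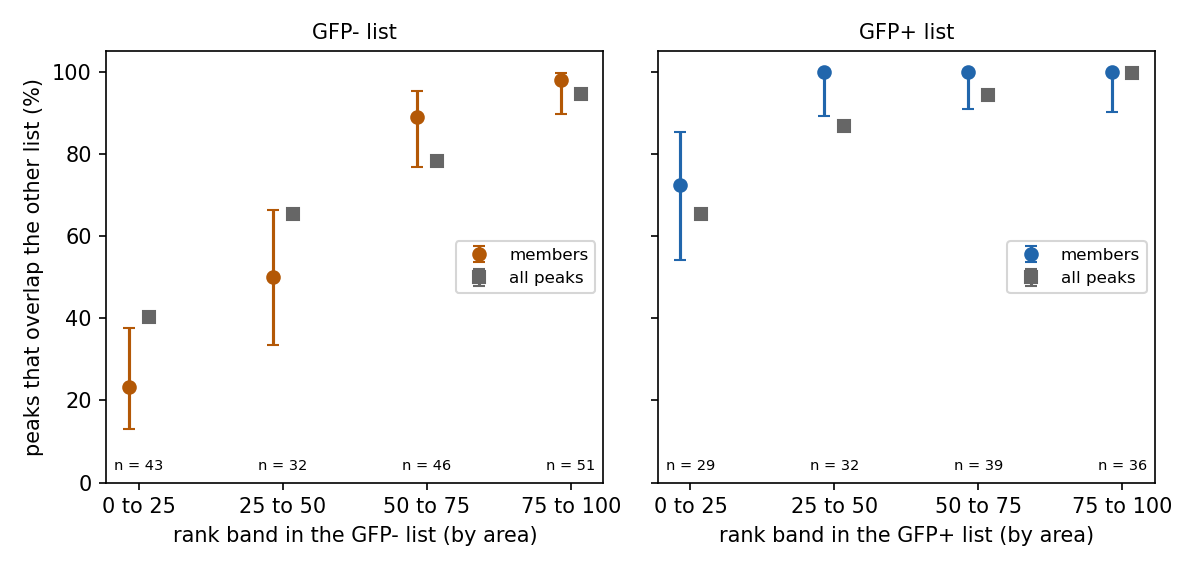
Share of peaks that overlap the other list (percent, vertical axis) by rank band, for peaks at the 10 genes (coloured circles, with their number) and for all peaks of the list (grey squares), with Wilson 95% intervals as bars. In the GFP- list the share at these genes went from 23.3% in the lowest band to 98.0% in the highest, and in the GFP+ list from 72.4% to 100%.

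Where both lists had a peak, the endothelial peak had the lower rank in most regions, an order that rests in part on the sizes of the lists. Overlapping peaks were joined into 115 regions, and the largest peak of each list in the region was compared. The GFP+ rank was lower in 96 regions and higher in 19, with a median difference of GFP+ minus GFP- of -6.79 points. Over all 53996 regions in both lists the median difference was -1.80 points, and 64.6% ranked lower in GFP+, compared with 83.5% at these genes. A drop of more than 20 points was found in 22 of the 115 regions, or 19.1%, beside 12.1% of all regions. The GFP- list holds more peaks, many of them small, and these lift the ranks of its larger peaks. With the GFP- list shortened to its 65008 largest peaks, 108 regions were left, of which 64 ranked lower in GFP+, or 59.3%, with a median difference of -0.655 points. Over all 49196 regions left the median was then 1.68 points, and 36.8% ranked lower in GFP+. A drop of more than 20 points was then found in 16 of the 108 regions, or 14.8%, beside 7.25% of all regions. By gene, the median with lists of equal size was -6.16 points for *Slc8a1*, -5.52 for *Atp2a2* and -3.07 for *Jph2*, and it lay between -0.0408 and 2.14 for the other 6 genes with shared regions. The way of ranking in the full lists mattered as well. The median at these genes was -3.58 points when peaks were ranked by area per bp, -4.62 by summit p-value and -3.37 by length, beside -1.93, -2.09 and -1.33 over all regions. By area per bp 74 of the 115 regions ranked lower in GFP+, or 64.3%, beside 57.3% of all regions. Summed over the peaks of a list in a region, the length was greater in the GFP- list in 86 of the 115 regions, or 74.8%. This was so in 62.0% of all regions.

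**Figure D3:**
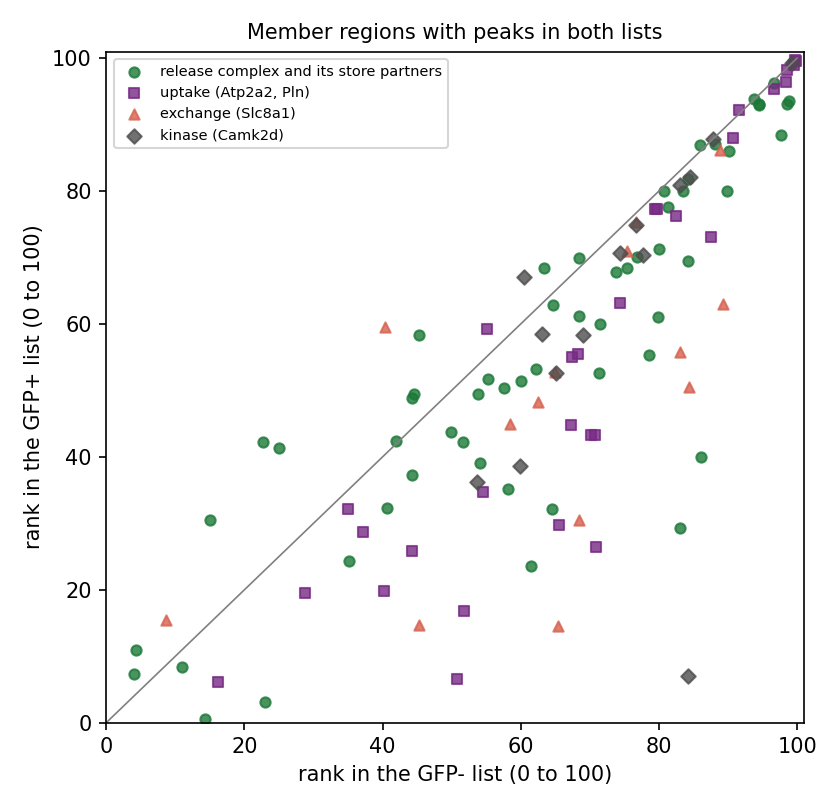
Rank by area in the GFP- list (horizontal) against that in the GFP+ list (vertical) for the 115 regions with peaks in both lists, with the line of equal rank. Of the points, 96 lie below the line, and those near rank 100 lie close to it. With lists of equal size 64 of 108 regions ranked lower in GFP+.

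Gene starts were open in both populations. A peak within 250 bp of the gene start was present for 8 of the 10 genes in each list, beside 56.9% of all protein-coding genes in the GFP- list and 54.8% in the GFP+ list. The genes without one were *Sln* and *Trdn*. The start peaks of *Camk2d* (99.3 in both lists), *Hrc* (99.3 and 99.2) and *Atp2a2* (98.6 and 98.3) ranked alike. *Jph2* had 98.5 in GFP- and 93.0 in GFP+, *Ryr2* 90.2 and 86.0, *Casq2* 88.2 and 87.0, *Pln* 86.3 and 79.6, and *Slc8a1* 76.7 and 75.3. Counted by position from the top of the list, the *Casq2* start peak stood at 9345 in GFP- and 8430 in GFP+, and that of *Slc8a1* at 18414 and 16027. Those of *Hrc* stood at 571 and 517 and those of *Camk2d* at 589 and 466. For these 4 genes the GFP+ peak stood higher. The GFP- peak stood higher for *Jph2* (1153 and 4521), *Ryr2* (7721 and 9086), *Pln* (10812 and 13259) and *Atp2a2* (1132 and 1133). The order of the genes by start rank was therefore led by the same 3 genes in both lists, and *Slc8a1* was last in both. With no replicate values, neighbours in that order cannot be told apart by a spread.

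Among the genes of calcium release, *Ryr2*, the release channel, is the longest of the 10 at 554 kb (chr13:11553102-12106945, minus strand, in mm10 like all coordinates here). It held 22 GFP- and 19 GFP+ body peaks, which covered only 2.33% and 1.85% of it. A gene of 0.5 to 2 times its length had a median cover of 0.875% and 0.579%, and 137 of 601 such genes were more covered in the GFP- list. Of the 4 GFP+ peaks of *Ryr2* not found in GFP-, the largest had a rank of 11.8. The GFP- list had 7 such peaks, the largest at -39.7 kb with a rank of 55.6.

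Triadin, encoded by *Trdn*, anchors calsequestrin to the release channel. Its gene record (chr10:33080554-33476709, plus strand) had no peak at its first base in either list and no peak in the 50 kb upstream. Other transcripts of *Trdn* start 2.93 kb further in, and there both lists had a peak with its summit at the same base, at ranks of 84.2 in GFP- and 81.8 in GFP+. The gene had 9 GFP- and 8 GFP+ peaks, and all 8 GFP+ peaks were shared. The largest GFP- peak without a partner, at 173 kb, had a rank of 6.22. The largest GFP- peak of the gene, in the body at 99.7 kb, had a rank of 86.1, and the GFP+ peak there had 39.9. Cover of the body was low, at 1.57% and 1.30%.

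Calsequestrin 2, encoded by *Casq2* (chr3:102086415-102146514, plus strand), is the protein that binds calcium inside the store. It had 9 peaks in each list, and all 9 GFP+ peaks and 8 GFP- peaks were shared. The GFP- peak without a partner, at 44.3 kb, had a rank of 13.2. The largest GFP- peak, at 13.6 kb with a rank of 89.9, met a pair of GFP+ peaks with ranks of 79.99 and 74.4, while the largest GFP+ peak was that of the start. The start peak had its summit before the gene, at -0.487 kb in GFP- and at -0.419 kb in GFP+. Cover was 6.64% in GFP- and 4.32% in GFP+, a ratio of 1.54, which fell under the limit of 1.5 in 3 of the 4 other settings. The 250 bases before the start hold a MEF2 match, as printed above, which 2.92% of the 32851 RefSeq promoter entries do. Of the 7 genes with such an entry, *Casq2* alone had a MEF2 match, *Pln* and *Slc8a1* had a GATA word and *Jph2* and *Hrc* an E-box, words that 6.55% and 13.0% of all entries hold. *Atp2a2*, *Sln* and *Trdn* were not analysed for promoter words.

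Junctophilin 2, encoded by *Jph2* (chr2:163336242-163397993, minus strand), ties the store membrane to the cell membrane. Its body was widely open, with 21 GFP- peaks over 41.1% and 15 GFP+ peaks over 22.8% of its length, and 10 of 5575 genes of like length were more covered in the GFP- list. All 15 GFP+ body peaks overlapped a GFP- peak. The largest peak found in a single list was at 7.35 kb in GFP-, with a rank of 52.1, and at -22.5 kb in GFP+, with a rank of 6.65. Along the body the ranks of the pair stayed close in places, as for the region at 36.9 kb with 93.7 in GFP- and 93.8 in GFP+, and parted in others, as at 11.0 kb with 83.1 and 29.3. The largest GFP+ peak of *Jph2*, at -21.6 kb with a rank of 96.3, lies by a start of the noncoding gene *2900093K20Rik* and one of *Oser1*, so its gene cannot be told from position.

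Histidine-rich calcium-binding protein, encoded by *Hrc* (chr7:45335290-45338974, plus strand), lies in the store and is a short gene next to *Trpm4*. Its start peak (chr7:45332678-45335741 in GFP-) ranked 99.3 in GFP- and 99.2 in GFP+ and spanned the start of *Trpm4* too. The summit lay at -1.45 kb in GFP-, near the *Trpm4* start, and at -0.116 kb in GFP+. Accessibility of the 2 starts cannot be told apart from 1 peak. Inside the gene, the GFP- list had 1 further small peak at 2.95 kb, with a rank of 25.8, that the GFP+ list lacked.

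**Figure D4:**
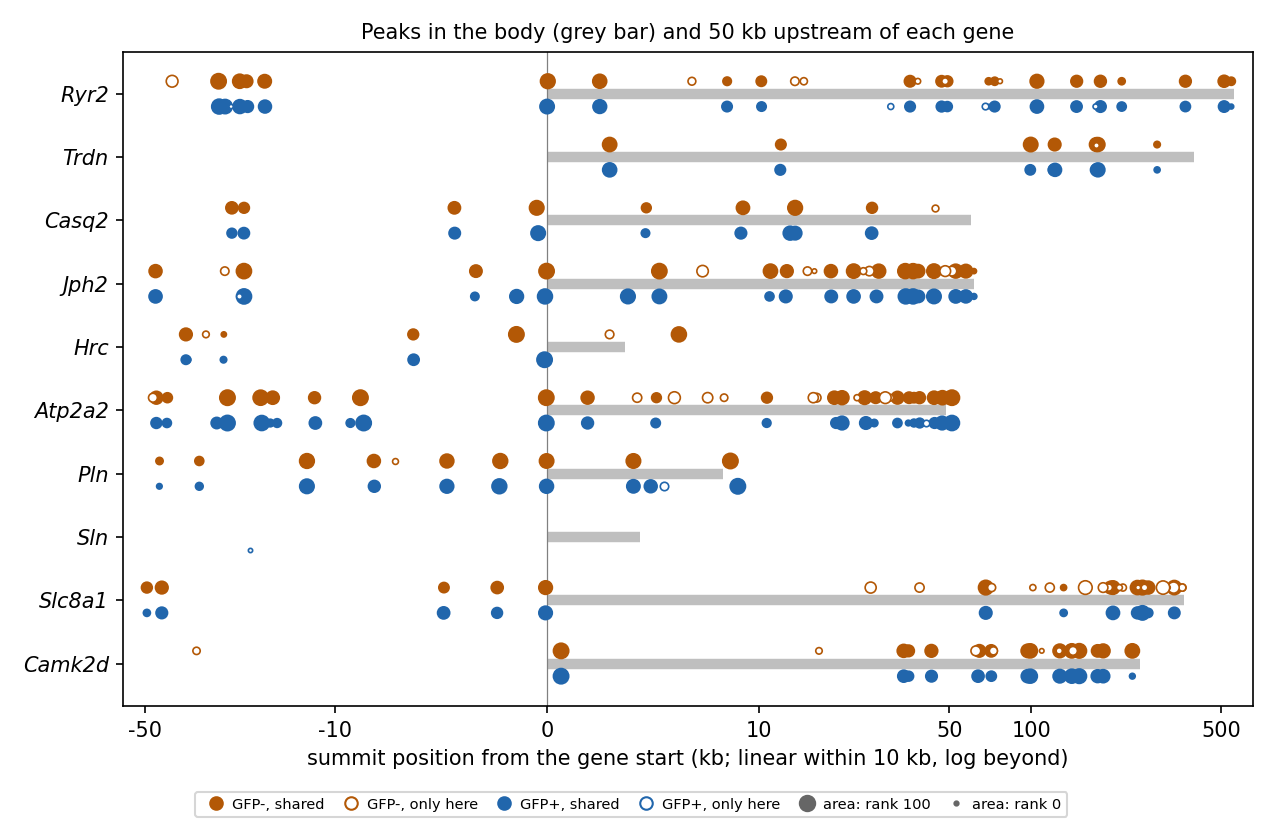
Peak summits by position from the gene start (kb, linear within 10 kb and logarithmic beyond) for each gene, GFP- above and GFP+ below the grey gene body, with filled circles for peaks that overlap the other list, open circles for those that do not, and size by rank. Open circles are mostly GFP- and small, 17 of them in *Slc8a1*, and *Sln* has a single small GFP+ peak.

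Among the genes of calcium uptake, *Pln* and *Atp2a2* were the most covered of the 10, whereas *Sln* had no cover. *Atp2a2*, the SERCA2 pump (chr5:122453513-122502225, minus strand), was covered over 53.5% in GFP- and 26.6% in GFP+, a ratio of 2.01. Of 6344 genes of like length, 8 were more covered in the GFP- list and 50 in the GFP+ list. Its 24 GFP- body peaks reached over 26066 bp, of which 12460 bp were also under GFP+ peaks. The GFP+ peaks reached over 12943 bp, so 96.3% of the endothelial cover lay within the GFP- cover. The start peak stood at position 1132 in GFP- and 1133 in GFP+. In the body the region at 32.3 kb ranked 65.5 in GFP- and 29.8 in GFP+ and that at 35.7 kb 50.8 and 6.59, whereas the region at 20.9 kb ranked 79.8 and 77.3. In 21 of its 22 shared regions the GFP+ rank was lower, with a median difference of -11.7 points, and with lists of equal size it was lower in 18 of 22, with a median of -5.52 points. By area per bp it was lower in 13 of 22. The largest GFP- peak without a partner, in an intron at 6.01 kb, had a rank of 56.6, and the GFP+ peak without one, at 41.2 kb, had a rank of 11.5.

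Upstream of *Atp2a2* lay the largest GFP- peak of those at the 10 genes, whereas in the GFP+ list the largest was that at the *Pln* gene end. At -24.9 kb a GFP- peak of 6399 bp (chr5:122524013-122530411) took position 69 of its list, a rank of 99.9, and a GFP+ peak of 4227 bp (chr5:122524100-122528326) took position 318, a rank of 99.5. Both had their summit at the same base, and the printed window around it held none of the 9 words. A second upstream peak at -8.81 kb ranked 99.6 in GFP- and one at -8.66 kb ranked 98.9 in GFP+. These upstream peaks of the pump gene were thus among the largest of both lists. Its other upstream peaks ranked lower, from 28.2 to 96.7 in GFP- and from 18.6 to 95.3 in GFP+.

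*Pln*, which encodes phospholamban, is a short gene (chr10:53337667-53345987, plus strand) and lay under peaks over 63.0% in GFP- and 60.5% in GFP+, a ratio of 1.04. Its largest peak ran from the body past the gene end (chr10:53343498-53349256, 5759 bp, position 187) with a rank of 99.8 in GFP- and, at position 195, 99.7 in GFP+, and its start peak ranked lower, at 86.3 and 79.6. The GFP- summit lay at 8.66 kb and the GFP+ summit at 9.01 kb, both past the gene end. Of its 11 GFP+ peaks 10 were shared, and so were 9 of its 10 GFP- peaks. The GFP+ peak without a partner, at 5.51 kb, had a rank of 24.7, and the GFP- peak without one, at -7.16 kb, had a rank of 7.76. *Pln* lies inside the longer gene *Cep85l* on the opposite strand, and a peak there cannot be given to either gene by position.

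*Sln*, which encodes sarcolipin (chr9:53850164-53854560, plus strand), had no peak in its body in either list. The GFP- list had none in the 50 kb upstream either, and its nearest peak lay 141 kb downstream of the gene, with a rank of 18.5. The GFP+ list had a single peak of 179 bp upstream at -20.6 kb, with a rank of 0.380, close to the smallest of its list. Sarcolipin is known in the mouse heart mainly from the atria, and atria and ventricles were not separated in these labels. Of the protein-coding genes, 15090 had some GFP- body cover, and *Sln* was among the rest.

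*Slc8a1*, the sodium-calcium exchanger (chr17:81373105-81738377, minus strand), had the largest gap in number of peaks between the lists. It held 31 GFP- and 14 GFP+ peaks, and 17 of the 31 were found only in GFP-, whereas all 14 GFP+ peaks were shared. Its share of shared GFP- peaks, 45.2% (29.2 to 62.2%), lay below that of its list. Cover of the body was 3.83% in GFP- and 1.25% in GFP+, a ratio of 3.08. The start of the gene record ranked 76.7 and 75.3, and a further transcript start 68.2 kb in ranked 89.3 in GFP- and 63.0 in GFP+. The 4 peaks upstream of the gene were shared in both lists.

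Among the peaks of *Slc8a1* found only in GFP-, the one of highest rank (chr17:81579833-81580809, at 158 kb) held matches to the TEAD, ETS, AP-1 and E-box words in its summit window, TEAD and the E-box each in 2 places, as printed above. The largest GFP+ peak of the gene, at 256 kb, had a rank of 86.1 and a partner of 88.8 in GFP-, and its window held a MEF2, a TEAD and an E-box word. Without *Slc8a1* the share of GFP- peaks shared with GFP+ was 73.0% (65.2 to 79.7%) over the other 9 genes.

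*Camk2d*, which encodes the delta chain of the calcium- and calmodulin-dependent kinase CaMKII (chr3:126596302-126846326, plus strand), had 22 GFP- and 14 GFP+ peaks, and all 14 GFP+ peaks were shared. The 8 GFP- peaks without a partner ranked at 35.8 or lower, the highest of them at 62.6 kb. The start peak ranked 99.3 in both lists. In the body the ranks of a pair were close in places, as at 150 kb with 87.9 in GFP- and 87.8 in GFP+, and apart in others. The GFP+ rank was lower by over 20 points in 2 of 14 shared regions, at 71.2 kb with 59.8 in GFP- and 38.7 in GFP+, and near the gene end at 235 kb with 84.2 and 7.02. Cover was 5.07% and 3.87%.

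By place, most peaks at the 10 genes were intronic. In the GFP- list 110 of 172 summits lay in introns and 42 upstream, and in the GFP+ list 76 of 136 lay in introns and 46 upstream. Of the 55 peaks found only in GFP-, 44 were intronic and 6 upstream. The places of all peaks of the lists were not counted, so whether introns were over-represented at these genes was not tested. All 7 GFP- summits and all 8 GFP+ summits within 1 kb of a gene start were shared, with median ranks of 90.2 and 90.0. In the upstream windows 30 of 36 GFP- peaks (83.3%, 68.1 to 92.1%) and 37 of 40 GFP+ peaks (92.5%, 80.1 to 97.4%) were shared. Over whole lists, at any place, 69.7% of GFP- and 86.6% of GFP+ peaks were.

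Of the 9 motif words in 2 lists, or 18 pairs of word and list, the interval lay above the share of all windows for 2 pairs, the SRF consensus in GFP- and the NKX2-5 word in GFP+. In windows of 400 bp it lay above for 5 of the 18 pairs and over whole peaks for 11, both of these pairs among them each time. Peaks at these genes were longer, with a median of 612.5 bp beside 469 bp over the GFP- list. The SRF consensus was in 9 of 172 summit windows at these genes, or 5.23% (2.78 to 9.64%), beside 1.12% of all 78862 GFP- windows on the chromosomes. The 9 windows lay at *Atp2a2* (3), *Ryr2* (2), *Camk2d* (2), *Jph2* (1) and *Hrc* (1), and 7 of the 9 peaks were shared. In the GFP+ list it was in 3 of 136 windows, or 2.21% (0.753 to 6.28%), beside 1.08%. The NKX2-5 word was in 16.2% (10.9 to 23.3%) of GFP+ windows beside 9.32%, and in 13.4% (9.08 to 19.3%) of GFP- windows beside 9.35%. The MEF2 word was in 7.56% (4.47 to 12.5%) of GFP- windows beside 4.98% and in 5.88% (3.01 to 11.2%) of GFP+ windows beside 5.44%. The GATA word was in 10.5% and 11.0% beside 6.83% and 6.96%, the TEAD word in 17.4% and 16.9% beside 13.6% and 12.7%, and the SOX word in 4.07% and 3.68% beside 2.19% and 2.82%, in GFP- and GFP+ in turn. The ETS word (2.91% and 1.47% beside 2.89% and 3.18%), the AP-1 word (7.56% and 7.35% beside 9.99% and 7.71%) and the E-box (19.2% and 14.7% beside 22.0% and 18.4%) had shares near or below those of all windows. Windows of a pair of overlapping peaks share sequence, so the lists are not independent here.

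The labels of the populations were checked against marker genes. Of 8 endothelial markers, 7 were at least 1.5 times more covered in GFP+ and 0 in GFP-, with summed cover of 3.03% in GFP- and 7.73% in GFP+, and *Emcn* had no GFP- cover. All 7 fibroblast markers were at least 1.5 times more covered in GFP- (7.85% and 2.40% summed), with *Col1a2*, *Dcn*, *Lum* and *Tcf21* at 0 in GFP+, and so were 3 of 6 mural cell markers (7.69% and 2.98%), with *Rgs5* at 0 in GFP+. Of 8 cardiomyocyte markers, however, 0 passed the limit in either direction, with summed cover of 22.7% in GFP- and 20.7% in GFP+, and none was at 0 in either list. *Myh6* was covered over 97.0% in GFP- and 98.1% in GFP+. Cover cannot exceed 100%, so *Myh6*, *Actc1* (100% and 96.5%), *Myl2* (98.0% and 96.4%) and *Tnnt2* (82.8% and 67.9%) could not pass either way. *Tnni3* (66.4% and 77.0%) could not pass towards GFP-. The limit could be passed both ways only by *Ttn* (6.34% and 4.77%), *Mybpc3* (17.5% and 15.0%) and *Myl3* (27.8% and 23.7%). Of 3 immune markers 1 was higher in each direction, with 0.605% and 0.623% summed and *Ptprc* at 0 in GFP+. The part of cardiomyocyte nuclei or DNA in the GFP+ cover of the calcium genes was not tested. The share of each cell type in the GFP- mixture bears on every ratio between the lists and was not tested either.

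Other genes of the dyad, the junction of cell membrane and store, and of the store itself were compared as a list of 20. Of these, 6 (*Akap7*, *Bin1*, *Cacna1c*, *Cav3*, *Fkbp1b* and *Tecrl*) were at least 1.5 times more covered in GFP- and 0 in GFP+, and 15 had a start peak in both lists. Of all protein-coding genes with a body peak, 22.8% passed towards GFP- and 6.63% towards GFP+. A start peak in both lists was found for 11704 of all 21755 genes. The median ratio was 1.29, beside 1.40 for the 9 calcium genes with a body peak and 1.10 for all protein-coding genes. *S100a1*, a calcium sensor of the heart, was the most covered in both lists (51.4% and 52.0%), and *Tecrl* the least (0.976% and 0.476%). *Cacna1c*, the pore of the L-type channel that triggers release, had 72 GFP- and 48 GFP+ body peaks over 6.96% and 4.24%, and *Fkbp1b*, a partner of the ryanodine receptor, was covered over 8.36% and 2.54%.

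The 13 paralogues of the members, most of them known from skeletal muscle or brain, were less covered. Their median cover was 3.81% in GFP- and 2.56% in GFP+, beside 5.86% and 4.09% for the 10 members. A start peak was found for 6 and 5 of them, beside 56.9% and 54.8% of all protein-coding genes. *Jph1* is in this list and in that of the dyad. The limit of 1.5 times was passed by 22.8% of all genes with a body peak towards GFP- and by 6.63% towards GFP+. *Ryr1*, the ryanodine receptor of skeletal muscle, and *Atp2a3* passed the limit towards GFP-, at 1.52% and 0.539% for *Ryr1* and at 3.81% with no GFP+ cover for *Atp2a3*, and *Jph3* passed it towards GFP+ at 0.953% and 1.57%. *Casq1* was the most covered, at 15.9% and 14.0%, and its start peak ranked 84.0 in GFP- and 32.7 in GFP+. *Atp2a1*, the pump of fast skeletal muscle, had no body peak in either list.

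Calcium genes that most cell types use were a further list, called store calcium genes here although not all of them act at the store. Of 14, 5 (*Atp2b4*, *Itpr1*, *Orai2*, *Stim1* and *Tmem38b*) were at least 1.5 times more covered in GFP- and 0 in GFP+, beside 22.8% and 6.63% of all genes with a body peak. A start peak in both lists was found for 13. The median ratio of the store genes was 1.08. *Itpr1*, an inositol trisphosphate receptor and release channel, had 47 GFP- and 29 GFP+ body peaks over 7.85% and 4.96%. The most covered were *Calr* in GFP- (23.1%) and *Orai3* in GFP+ (32.0%), and the least covered *Atp2b1* in GFP- (1.42%) and *Stim1* in GFP+ (1.29%). No difference between the lists of genes was tested.

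**Figure D5:**
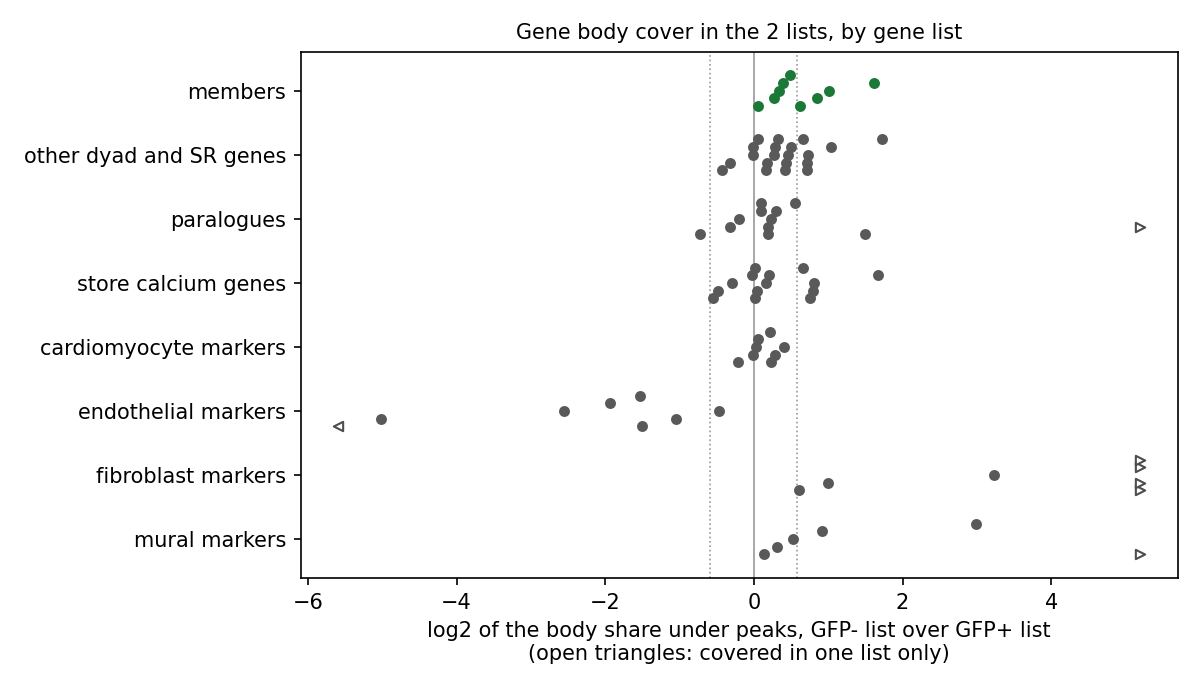
Log2 ratio of the body share under peaks, GFP- list over GFP+ list, with 1 point per gene, a solid line at equal cover and dotted lines at 1.5 times either way. The 9 calcium genes with a body peak lie on the GFP- side, and the 8 cardiomyocyte markers lie between the dotted lines. Several of these markers were too widely covered to lie outside the dotted lines, as cover cannot exceed 100%. Endothelial and fibroblast markers lie on opposite sides. Of all 15315 protein-coding genes with a body peak (not drawn), 10156 were more covered in GFP- and 4966 in GFP+.

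By likeness of body cover in the 2 lists, measured as the distance in percentage points among 13991 protein-coding genes of at least 10 kb, the genes nearest to *Ryr2* were *Ythdc1*, *Spata7*, *Tesk2*, *Bag4* and *Copz1*, all within 0.0429 points. Nearest to *Atp2a2* were *Klf15*, *Slc29a1*, *Carhsp1*, *Vasn* and *Ldb1*, from 4.78 to 7.72 points away, so few genes had a cover like that of the pump gene. *Klf15*, which encodes a transcription factor, was covered over 48.7% in GFP- and 26.8% in GFP+. The likeness rests on 2 lists and on percentages, not on length. The genes nearest to *Ryr2* had bodies of 20.8 to 85.0 kb, beside 554 kb for *Ryr2*. Those nearest to *Atp2a2* had bodies of 10.9 to 14.4 kb, beside 48.7 kb for *Atp2a2*.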

How the data were processed

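ATAC-Seq was made from sorted heart nuclei in 4 libraries, 2 each of GFP- and GFP+ nuclei, grouped by their labels. The authors trimmed reads, mapped them to mm10 with Bowtie2 (2.3.5.1 in the submitters' processing notes), filtered the alignments (SAMtools), took out duplicates (Picard) and evened library sizes by downsampling. Peaks were then called by Genrich, set for ATAC-Seq, without mitochondrial, Y-chromosome and blacklisted regions. They deposited 1 list per population, called from both libraries together. The area deposited for each peak is the caller's signal added up along it. The deposited score is that area divided by the length, multiplied by 1000 and capped at 1000, and the deposited -log10 p is that of the summit. Areas were compared only as ranks within a list, since they scale with depth and with how strongly reads concentrate. The lists give no read depth per library, and the smallest area was 200 in both. The q-value column holds no values.

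Genes came from GENCODE M21, whose gene record gives body and start, and sequence from GRCm38.p6 and RefSeq. Peaks were shared with an overlap of at least 1 bp. Body cover counted bp under peaks, and a gene was called higher in a list at 1.5 times the share of the other. Of the members, 7 had a RefSeq promoter entry, and all 8 entries matched the genome. The genes, and the lists of dyad, paralogous, store and marker genes, were chosen with earlier results of these data known. The text names all 10 genes, in each other list the most and least covered and those called, the 5 genes of most like cover, and for each of the 10 genes the largest peak of each list, start peaks and the largest peak found in a single list. Of these, 1 region is not reported here. Further peaks and genes named as examples, and the SRF windows, were chosen after their values were seen. Intervals are Wilson 95% intervals. Other settings changed the upstream distance, overlap rule, list size, gene model, ranking, start and motif window. Python 3.11.15, numpy 2.4.6, pandas 2.3.3, scipy 1.17.1, pysam 0.24.0, samtools 1.23.1 and matplotlib 3.10.9 were used. Scripts were tested on simulated peaks.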

Additional observations from a re-analysis of the deposited data

How the results depend on the processing

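Keeping only the upper part of each list by area, from rank 50 up, left 97 GFP- and 75 GFP+ peaks at the 10 genes, of which 93.8% and 100% overlapped any peak of the other list, beside 86.4% and 97.0% of all such peaks. Asking for an overlap of 50% of both peaks lowered the shared share to 55.2% of GFP- and 69.1% of GFP+ peaks, beside 60.7% and 73.7% over whole lists, so the GFP+ share then lay below that of its list. With lists of equal size the GFP- share was 79.7%, beside 76.8% over the list. The ratio of the AP-1 share to its background in the GFP- list was 1.43 over whole peaks and 0.757 in 200 bp windows. The median rank difference of shared regions, -6.79 points, was -3.58 by area per bp, -3.37 by length and -0.655 with lists of equal size, the last chosen after seeing the data. The other 78 alternatives for the main results stayed within 1.5 times or within the counting interval. For single genes, *Casq2* no longer passed 1.5 times towards GFP- without the first 1000 bp (1.43), with equal list sizes (1.37) or from rank 50 up (1.31), *Ryr2* passed it from rank 50 up (1.83), and the ratio of *Atp2a2* went from 2.01 to 3.37 there. That of *Hrc* turned from 1.40 to 0.771 from rank 50 up, and that of *Pln* to 0.967 without the first 1000 bp. Leaving out *Slc8a1* or *Atp2a2* was chosen after seeing the data and moved no main result by over 1.5 times. No paired analysis was possible because both libraries of a population went into 1 peak list, and for the same reason leaving out a library could not be run. Depth per library is unknown from the lists, so a missing peak means only that none was called.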

Other observations

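Downstream of the genes, within 50 kb of the gene end, *Atp2a2* had 7 GFP- and 5 GFP+ peaks, the largest at ranks of 93.1 and 87.4, and all 5 GFP+ peaks were shared. *Casq2* had 8 GFP- peaks, 4 of them shared, and 5 GFP+ peaks, 4 of them shared, with highest ranks of 81.8 and 78.7. *Hrc* had 3 GFP- and 5 GFP+ peaks, with highest ranks of 97.3 and 96.3. *Pln* had 1 GFP- peak, of rank 94.9, and 2 GFP+ peaks, the higher of rank 94.3. *Slc8a1*, *Trdn*, *Camk2d* and *Sln* had no peak there in either list.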
